A study of Rattus norvegicus with 22 samples.

Results

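Expression of 9 genes of the NRF2 pathway, the cell's main defence programme against oxidants and electrophiles, was described in livers of rats given the compound GSK932121A or its vehicle. The 9 genes were Nfe2l2, Keap1, Sqstm1 and Maff, which encode NRF2 itself and proteins that act on it or pair with it, and Hmox1, Osgin1, Nqo1, Srxn1 and Txnrd1, which are NRF2 targets. A gene was taken from the probe sets that carry its symbol alone in the platform annotation, with the brightest probe set standing for a gene that has several. All 9 genes were measured, each by 1 probe set, among 18166 genes in all.

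NRF2 is a transcription factor that KEAP1, an adaptor for the CUL3 ubiquitin ligase, marks for destruction in unstressed cells. When oxidants or electrophiles modify KEAP1, or when the autophagy receptor SQSTM1 (p62) binds it, NRF2 escapes, pairs with a small MAF protein and binds antioxidant response elements near genes for heme breakdown, quinone reduction, glutathione supply and thiol repair. BACH1, a repressor that also pairs with small MAF proteins, competes for the same elements, and in liver the pathway is best known for its control of detoxification enzymes.

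The treated rats received GSK932121A, which the series title names as an inhibitor of complex III of the mitochondrial electron transport chain, as a single intraperitoneal injection of 50 mg/kg, and their livers were taken after 5 hours (n = 10). The other rats received the same formulation without the compound (n = 12), with no time given in their labels. All were female Crl:CD(SD) rats, an outbred Sprague-Dawley stock, labelled as 12 weeks old and dosed at 10 mL/kg, and each array held RNA from the median lobe of 1 rat. Each group was dosed with 12 rats, and the submitters left out 2 treated rats because little compound had reached their plasma, so the treated group was selected for exposure. Rats are numbered here as in the labels.

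The values are log2 intensities. Array medians lay between 4.73 and 4.85. Pairs of arrays correlated at 0.971 to 0.990 over all genes, which are not independent of each other. The mean of 7 hepatocyte markers lay between 11.7 and 11.9 in treated livers and between 11.6 and 11.8 in vehicle livers. Of the markers of 8 liver and blood cell types, 3 changed, all upward, where 12.4% of all genes changed in either direction. Cps1, among 7 hepatocyte markers, rose by 0.32 on the log2 scale (limma adjusted p = 0.000789). Cd163, among 12 Kupffer cell and macrophage markers, rose by 0.36 (limma adjusted p = 0.00461). Lyve1, among 5 sinusoidal endothelial cell markers, rose by 0.22 (limma adjusted p = 0.0201). None of 9 neutrophil, 9 stellate cell, 6 cholangiocyte, 6 lymphocyte and 2 erythroid markers changed. A mean below every array median was found for 7 neutrophil, 4 cholangiocyte, 3 lymphocyte and 1 erythroid marker.

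The pathway moved in both directions after GSK932121A. The heme-degrading enzyme gene Hmox1 and the small MAF gene Maff rose, while Nfe2l2, which encodes NRF2, and the target Osgin1 fell. Nqo1 and Txnrd1, which are textbook NRF2 targets, showed differences near 0, and Srxn1, Keap1 and Sqstm1 did not pass the test. A gene was counted as changed at an adjusted p under 0.05 in limma, with the adjustment over all genes. By this rule 4 of the 9 genes changed, 2 upward and 2 downward, where 12.4% of all genes did (5.31% upward and 7.05% downward). The 9 genes were chosen with earlier results of these data known, so their count is a description and not a test of the pathway. The median log2 difference of the 9 genes was 0.03, against -0.01 over all genes. None of the 9 separated the groups completely, which 0.738% of all genes did (0.457% with all treated rats higher and 0.281% with all treated rats lower).

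**Figure D1:**
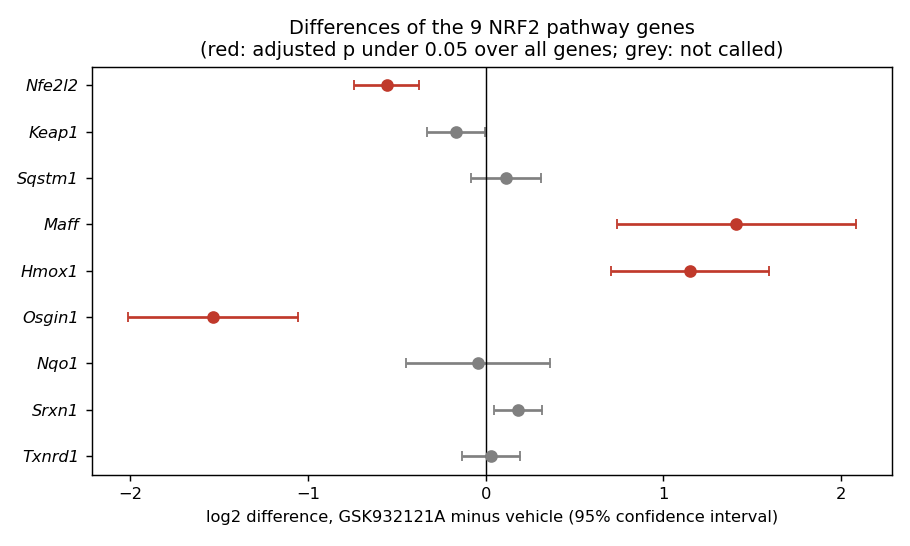
Difference in log2 expression of each NRF2 pathway gene, GSK932121A minus vehicle (horizontal axis, log2 units), with its 95% confidence interval as a bar. Red points passed the test over all genes and grey points did not. Maff and Hmox1 lie at 1.41 and 1.15, Nfe2l2 and Osgin1 at -0.56 and -1.54, and the other 5 genes between -0.17 and 0.18.

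Among the regulators, Nfe2l2 had a lowest, median and highest log2 value of 8.42, 8.84 and 9.34 in treated livers, against 9.22, 9.36 and 9.86 in vehicle livers. In 9 of 10 treated rats it lay below every vehicle rat, and rat 18 alone lay within the vehicle range. Nfe2l2 averaged 8.85 ± 0.24 (SD, n = 10) in treated livers and 9.41 ± 0.18 (SD, n = 12) in vehicle livers, a fall of 1.47-fold (log2 difference -0.56, 95% interval -0.74 to -0.37, limma adjusted p = 9.57e-05). These are transcript levels of whole tissue, in which fewer cells of a type and less RNA per cell cannot be told apart, and NRF2 protein, its stability and its place in the cell were not measured.

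Keap1, the gene for the adaptor that targets NRF2 for degradation, lay between 6.68 and 7.28 in treated livers, with a median of 7.04, and between 6.88 and 7.41 in vehicle livers, with a median of 7.21. Its log2 difference was -0.17 (95% interval -0.33 to -0.00, limma adjusted p = 0.196). Sqstm1, whose protein delivers ubiquitinated cargo and KEAP1 to autophagosomes and whose gene is itself an NRF2 target, lay between 7.78 and 8.51 in treated livers, with a median of 8.14, and between 7.58 and 8.48 in vehicle livers, with a median of 8.05. Its log2 difference was 0.12 (95% interval -0.08 to 0.31, limma adjusted p = 0.512). The groups overlapped over most of their range for both genes, and the intervals leave room for changes up to the bounds given.

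Maff encodes 1 of the small MAF proteins, which have a DNA-binding domain but no activation domain and serve as the partner of NRF2 and of BACH1. Its lowest, median and highest log2 values were 5.33, 6.76 and 9.12 in treated livers, against 5.02, 5.36 and 5.87 in vehicle livers. Maff lay above every vehicle rat in 6 treated rats and within the vehicle range in the other 4. It was highest in rats 18 and 14, at 9.12 and 8.16, and lowest in rat 24. The mean was 6.80 ± 1.25 (SD, n = 10) in treated livers and 5.39 ± 0.25 (SD, n = 12) in vehicle livers, a 2.66-fold difference (log2 difference 1.41, 95% interval 0.74 to 2.08, limma adjusted p = 0.00425). The call was lost in the Welch test, which does not assume equal spread (adjusted p = 0.0532). It was also lost in a limma fit with 5 surrogate variables, which are meant to stand for unlabelled sources of variation between arrays. In that fit the log2 difference of Maff was 0.23 (adjusted p = 0.665). The surrogate variables also held 45.5% of the variance of the group variable. That fit therefore removes part of the group difference, for Maff and for the genes below.

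**Figure D2:**
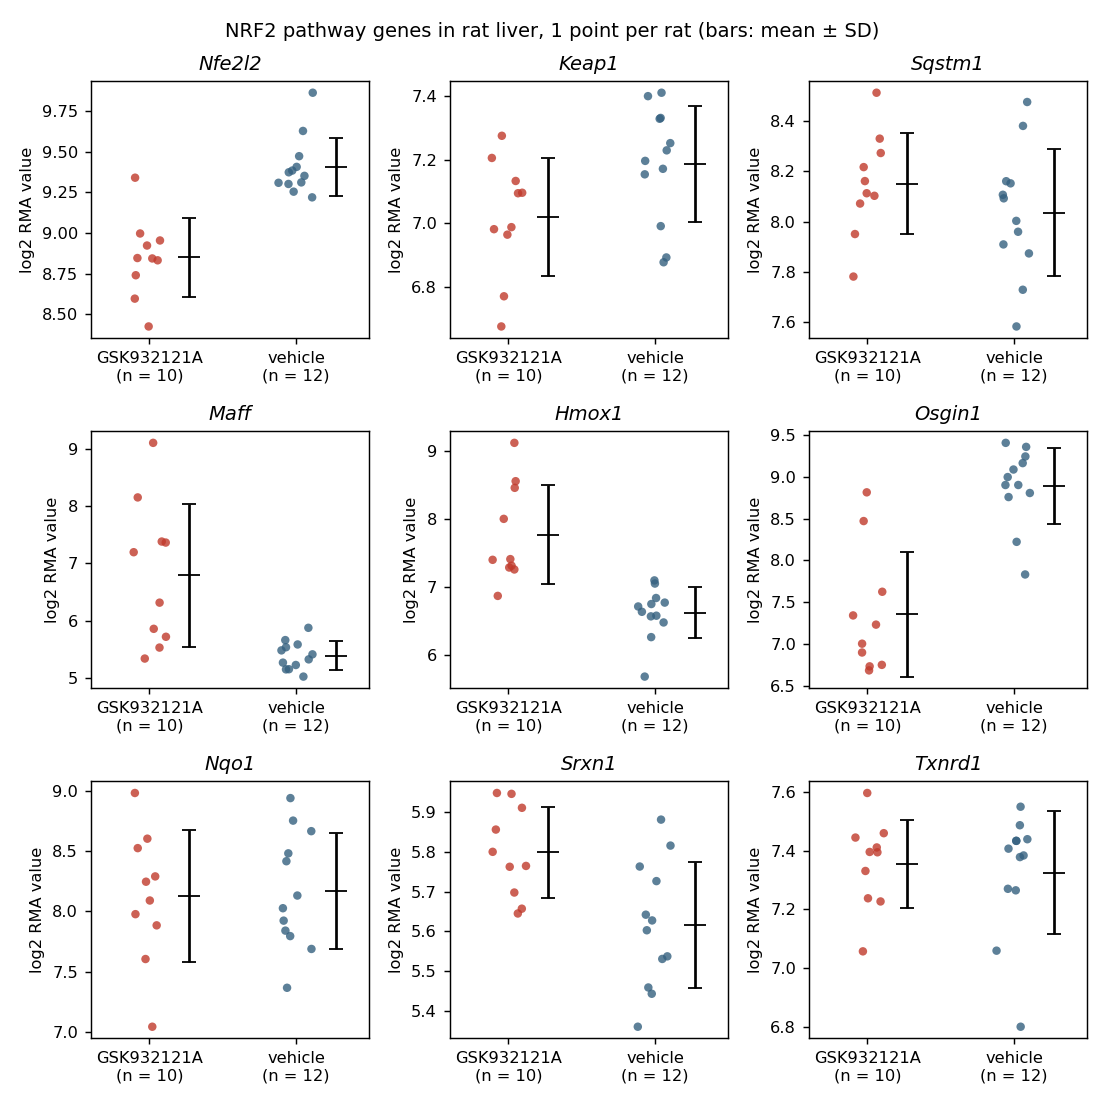
Log2 RMA value (vertical axis) of each of the 9 genes in every rat, GSK932121A on the left and vehicle on the right of each panel, with 1 point per rat and a bar for the mean ± SD. Each panel has its own vertical range, which does not start at 0. Treated rats run from 5.33 to 9.12 for Maff and from 6.87 to 9.12 for Hmox1, while vehicle rats run from 5.02 to 5.87 and from 5.68 to 7.10.

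Maff differed between the groups in its spread as well as its mean. The mean absolute deviation of a rat from its group's median was larger by 0.85 log2 units in treated livers (limma adjusted p = 0.0272). Of all genes, 14, or 0.0771%, differed in spread by this test, all with the wider spread in treated livers, and Maff was the only 1 of the 9 among them. That background count was itself unsteady: it was 0 without treated rat 17, 20, 21 or 24, between 5 and 12 without any other single rat, and 64 with deviations taken from the group mean. The call was lost when any single array was left out other than those of vehicle rats 4, 6, 7, 8, 10 and 12, and the adjusted p reached 0.667 without treated rat 20, while the difference itself stayed between 0.65 and 0.88.

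Among the targets, Hmox1 encodes heme oxygenase, which splits heme into biliverdin, carbon monoxide and iron and which BACH1 represses. Its lowest, median and highest log2 values were 6.87, 7.41 and 9.12 in treated livers, against 5.68, 6.68 and 7.10 in vehicle livers. It lay above every vehicle rat in 9 of 10 treated rats, and rat 24 lay within the vehicle range. Hmox1 was highest in rat 20, at 9.12, followed by rats 13, 16 and 17 at 8.56, 8.46 and 8.01. The mean was 7.77 ± 0.73 (SD, n = 10) in treated livers and 6.62 ± 0.37 (SD, n = 12) in vehicle livers, a rise of 2.22-fold (log2 difference 1.15, 95% interval 0.71 to 1.59, limma adjusted p = 0.000573). Kupffer cells are a known source of this enzyme. Of 12 Kupffer cell and macrophage markers only Cd163, the receptor for haptoglobin-bound hemoglobin, changed, and the mean of the list lay between 7.51 and 8.00 in treated livers and between 7.41 and 8.05 in vehicle livers. The part of Cd163-bearing cells in the Hmox1 result was not tested.

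Osgin1, an oxidative stress induced growth inhibitor gene, had a lowest, median and highest log2 value of 6.68, 7.12 and 8.82 in treated livers, against 7.83, 8.95 and 9.41 in vehicle livers. In 8 of 10 treated rats it lay below every vehicle rat. The exceptions were rats 18 and 14, at 8.82 and 8.47, which were also the rats with the highest Maff. Osgin1 averaged 7.36 ± 0.75 (SD, n = 10) in treated livers and 8.89 ± 0.46 (SD, n = 12) in vehicle livers, a fall of 2.90-fold (log2 difference -1.54, 95% interval -2.01 to -1.06, limma adjusted p = 5.03e-05).

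Nqo1, the NAD(P)H quinone reductase that is the usual readout of NRF2 activity, lay between 7.04 and 8.98 in treated livers, with a median of 8.17, and between 7.37 and 8.94 in vehicle livers, with a median of 8.08. Its log2 difference was -0.04, and the 95% interval, from -0.45 to 0.36, spans changes from a level 0.732 times that of vehicle to one 1.28 times it (limma adjusted p = 0.929). Txnrd1, the cytosolic thioredoxin reductase, lay between 7.06 and 7.60 in treated livers, with a median of 7.40, and between 6.80 and 7.55 in vehicle livers, with a median of 7.40. Its log2 difference was 0.03 (95% interval -0.13 to 0.19, limma adjusted p = 0.876), so the groups overlapped and a change of either sign up to about these bounds cannot be told from the spread between rats.

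Srxn1, sulfiredoxin, which repairs over-oxidised peroxiredoxins, had a lowest, median and highest log2 value of 5.64, 5.78 and 5.95 in treated livers, against 5.36, 5.62 and 5.88 in vehicle livers. Only 3 treated rats lay above every vehicle rat. The log2 difference was 0.18 (95% interval 0.05 to 0.32), and it missed the threshold in limma over all genes (adjusted p = 0.0730). It passed when genes with a mean log2 value under 5 were left out (adjusted p = 0.0402), in the Welch test (0.0481), and without vehicle rat 1 (0.0483) or vehicle rat 8 (0.0348). Srxn1 did not pass in any other alternative. In limma the adjusted p was 0.114 with each array centred on its median and 0.131 without treated rat 23. With 5 surrogate variables its log2 difference was 0.09 (limma adjusted p = 0.673).

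Hmox1 and Maff, the genes that rose, were highest in different treated rats. Rat 20, with the highest Hmox1, had a Maff value of 5.71, inside the vehicle range. Rat 18, with the highest Maff, had an Hmox1 value of 7.32, below the treated median. Rats 13 and 16 were high for both, and rat 24 lay within the vehicle range for both. Across the 10 treated rats the correlation of Hmox1 with Maff was close to 0 (Pearson r = -0.04, permutation p = 0.912, Spearman rho = 0.30, permutation p = 0.405), and r was 0.17 without rats 13 and 20 (permutation p = 0.676, 8 rats).

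**Figure D3:**
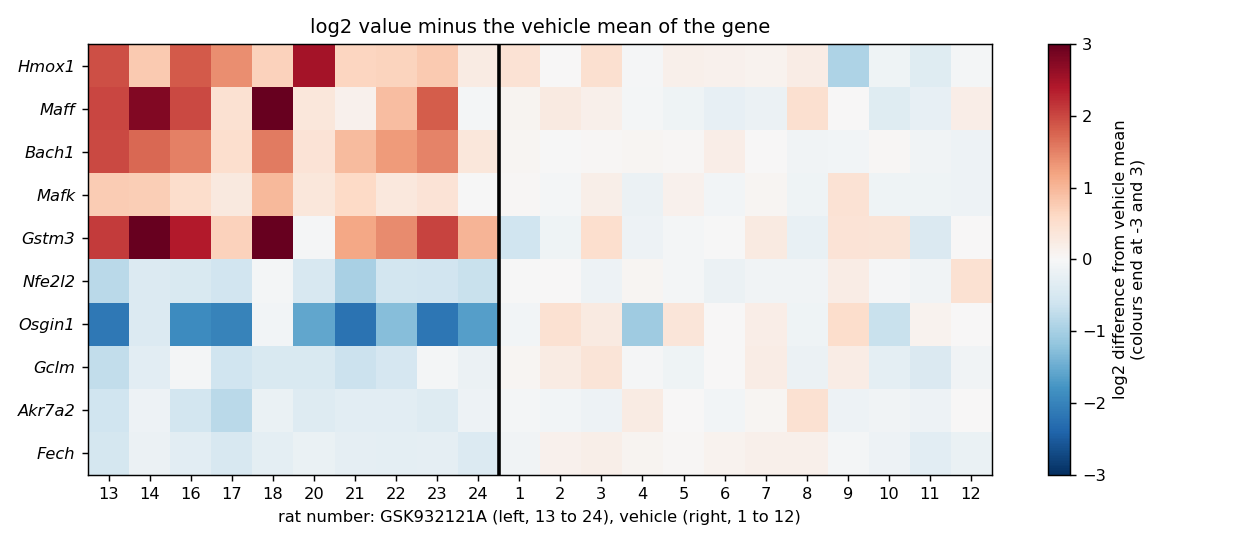
Log2 value minus the vehicle mean of the gene (colour, ending at -3 and 3) for 4 NRF2 pathway genes and 6 related genes (rows) in each rat (columns), with the 10 GSK932121A rats left of the black line and the 12 vehicle rats right of it. Hmox1 is reddest in rat 20, Maff and Gstm3 in rats 18 and 14, and Osgin1 is palest among treated rats in the same rats 18 and 14.

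All pairs of the 9 genes were correlated within each group, 72 relations in all. None passed after Benjamini-Hochberg adjustment, and at an unadjusted p under 0.05 there were 5 of 36 pairs among treated rats and 1 of 36 among vehicle rats. The treated pairs included Maff with Osgin1, with Nfe2l2 and with Sqstm1, so they are not separate relations. The counts of the groups were not tested against each other, and no share over pairs of all genes was computed. The pair with the smallest p was Osgin1 and Nfe2l2 in treated rats (Pearson r = 0.80, permutation p = 0.00271, adjusted 0.195; Spearman rho = 0.83, permutation p = 0.0048, adjusted 0.346). Without rats 14 and 18, r was 0.53 (permutation p = 0.180, 8 rats), and with any single treated rat left out it lay between 0.61 and 0.85. In vehicle rats the same pair had an r of -0.01 (permutation p = 0.978, adjusted 0.978; Spearman rho = 0.01, permutation p = 0.974), and 0.11 without rats 4 and 10 (permutation p = 0.768). Nqo1 and Txnrd1, whose means did not pass the test between groups, had an r of 0.72 in treated rats (permutation p = 0.0209, adjusted 0.532; Spearman rho = 0.68, permutation p = 0.0344), and 0.45 without rats 13 and 20 (permutation p = 0.264, 8 rats). In vehicle rats Nqo1 and Txnrd1 had an r of 0.54 (permutation p = 0.0627, adjusted 0.567) and a Spearman rho of 0.41 (permutation p = 0.186). Without vehicle rats 4 and 7, r was 0.19 (permutation p = 0.619, 10 rats).

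The RefSeq table of promoters held 8 of the 9 genes, with 9 promoters, 2 of them for Txnrd1, and no entry for Hmox1. The 250 bases before the start of transcription are shown, 5′ to 3′ on the strand of the gene, for the genes with an entry whose expression changed. They lie in the GRCr8 build at chr7:112792537-112792786 on the plus strand for Maff, chr3:81029000-81029249 on the minus strand for Nfe2l2 and chr19:64393651-64393900 on the plus strand for Osgin1. Capitals mark a match to 1 of 3 motifs searched on both strands of a window from 250 bases before to 50 bases after the start.
Maff: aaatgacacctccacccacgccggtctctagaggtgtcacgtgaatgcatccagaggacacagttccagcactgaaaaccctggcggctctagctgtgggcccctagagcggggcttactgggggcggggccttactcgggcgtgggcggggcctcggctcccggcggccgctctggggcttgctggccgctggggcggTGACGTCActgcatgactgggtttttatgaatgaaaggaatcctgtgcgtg
Nfe2l2: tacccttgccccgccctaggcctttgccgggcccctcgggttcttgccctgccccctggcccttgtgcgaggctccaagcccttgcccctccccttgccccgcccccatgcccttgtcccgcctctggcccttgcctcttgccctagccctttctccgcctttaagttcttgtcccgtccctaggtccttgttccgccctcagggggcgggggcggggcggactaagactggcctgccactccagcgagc
Osgin1: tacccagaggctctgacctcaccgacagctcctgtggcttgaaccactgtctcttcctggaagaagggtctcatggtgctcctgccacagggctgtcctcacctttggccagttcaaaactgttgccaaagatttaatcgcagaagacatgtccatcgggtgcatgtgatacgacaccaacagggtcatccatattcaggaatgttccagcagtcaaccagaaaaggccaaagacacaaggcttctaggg
The motifs were the antioxidant response element core TGACNNNGC, the AP-1 site TGANTCA and the ATF/CREB site TGACGTCA. The capitals in Maff are the ATF/CREB site, at bases -51 to -44, a sequence that 1.83% of 33469 promoters hold. The element core, held by 12.1% of all promoters, lay in Nfe2l2 at bases 39 to 47 past the start, beyond the stretch shown, and in 1 Txnrd1 promoter at -78 to -70. The AP-1 site, held by 7.33%, lay in Srxn1 at -62 to -56 and at -5 to 2. The windows of Osgin1, Nqo1, Keap1 and Sqstm1 held none of these letters. These matches describe the sequence and do not show that a factor binds there, and response elements farther from the start were not searched.

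Beside the 9 genes, 84 genes of the pathway were listed in 6 groups, of which 74 were measured. Of these 12 changed, 4 upward and 8 downward, where 12.4% of all genes did. By group, the calls were 25% of regulators and partners, 9.09% of glutathione and thioredoxin genes and 16.7% of detoxification genes. They were 22.2% of heme and iron genes, 10% of autophagy genes and none of the NADPH-generating genes. The upward calls were Bach1, Mafk, Gstm3 and Map1lc3a. Regardless of the test, 8647 of all 18166 genes (47.6%) had a difference above 0. Above 0 lay 6 of 16 regulators and partners, 4 of 11 glutathione and thioredoxin genes, 4 of 24 detoxification genes, 1 of 4 NADPH-generating genes, 3 of 9 heme and iron genes and 5 of 10 autophagy genes. The members of the groups and the 9 genes were chosen with results of these data known, so the counts are descriptions.

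**Figure D4:**
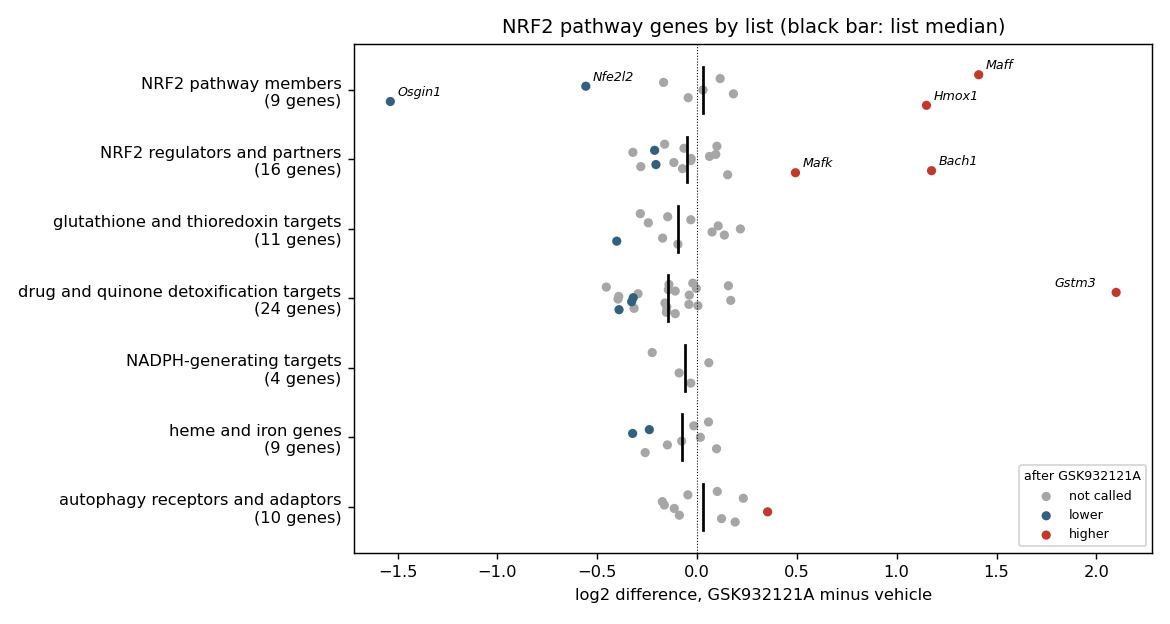
Log2 difference, GSK932121A minus vehicle (horizontal axis), of every measured gene in the 9 NRF2 pathway genes and the 6 lists beside them (rows), with a black bar at each list's median and vertical jitter only to part the points. Red genes rose, blue genes fell and grey genes did not pass the test. The list medians lie between -0.15 and 0.03.

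Of 16 measured regulators and partners of NRF2, 2 rose and 2 fell, with a median log2 difference of -0.05. Bach1, the repressor of Hmox1 and competitor of NRF2, separated the groups completely, with a lowest, median and highest log2 value of 8.18, 9.22 and 9.83 in treated livers, against 7.69, 7.87 and 8.04 in vehicle livers. All 10 treated rats lay above all 12 vehicle rats, as for 0.457% of all genes. Bach1 averaged 9.01 ± 0.59 (SD, n = 10) in treated livers and 7.84 ± 0.10 (SD, n = 12) in vehicle livers, a rise of 2.26-fold (log2 difference 1.17, SE 0.16, limma adjusted p = 1.02e-05). With 5 surrogate variables its log2 difference was 0.51 (limma adjusted p = 0.00113).

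Mafk, a second small MAF gene, had a median of 6.35 in treated livers and 5.83 in vehicle livers, and 5 treated rats lay above every vehicle rat (log2 difference 0.49, 95% interval 0.29 to 0.69, limma adjusted p = 0.000868). With 5 surrogate variables its difference was 0.26 (adjusted p = 0.209). Mafg, the other small MAF gene listed, had a log2 difference of 0.15 (limma adjusted p = 0.244). Nfe2l1, which encodes an NRF2 relative best known for proteasome genes, and Dpp3, a peptidase that binds KEAP1, fell by 0.21 each on the log2 scale (limma adjusted p = 0.0407 and 0.0432). Both calls lie near the threshold and were lost in 13 of the 22 fits that left out 1 array, with an adjusted p of up to 0.0861 for Nfe2l1 and 0.0927 for Dpp3, both without treated rat 23. The call of Nfe2l1 held when the array left out was that of treated rat 14, 17, 18, 21 or 22 or of vehicle rat 3, 6, 7 or 12, and that of Dpp3 when it was that of treated rat 17, 20, 21, 22 or 24 or of vehicle rat 2, 3, 6 or 9. Both were also lost with each array centred on its median (adjusted p = 0.0669 for Nfe2l1 and 0.0585 for Dpp3), with cyclic loess (0.0711 and 0.123), with limma's array weights (0.0511 and 0.0721) and with 5 surrogate variables (0.123 and 0.595).

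Bach1 and Maff ranked the treated rats much alike. This pair was examined after the values were seen, in a family of 18 relations of Bach1 with the 9 genes in both groups. In treated rats Pearson r was 0.81 (permutation p = 0.00597, adjusted 0.107) and Spearman rho 0.92 (permutation p = 0.00046, adjusted 0.00828). Without rats 20 and 24, r was 0.72 (permutation p = 0.0443, 8 rats). In vehicle rats r was -0.48 and rho -0.43 (permutation p = 0.115 and 0.162), and r was -0.32 without rats 6 and 12 (permutation p = 0.361). Bach1 and Hmox1 had an r of 0.01 in treated rats (permutation p = 0.987; Spearman rho = 0.26, permutation p = 0.470), and 0.22 without rats 20 and 24 (permutation p = 0.611, 8 rats).

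**Figure D5:**
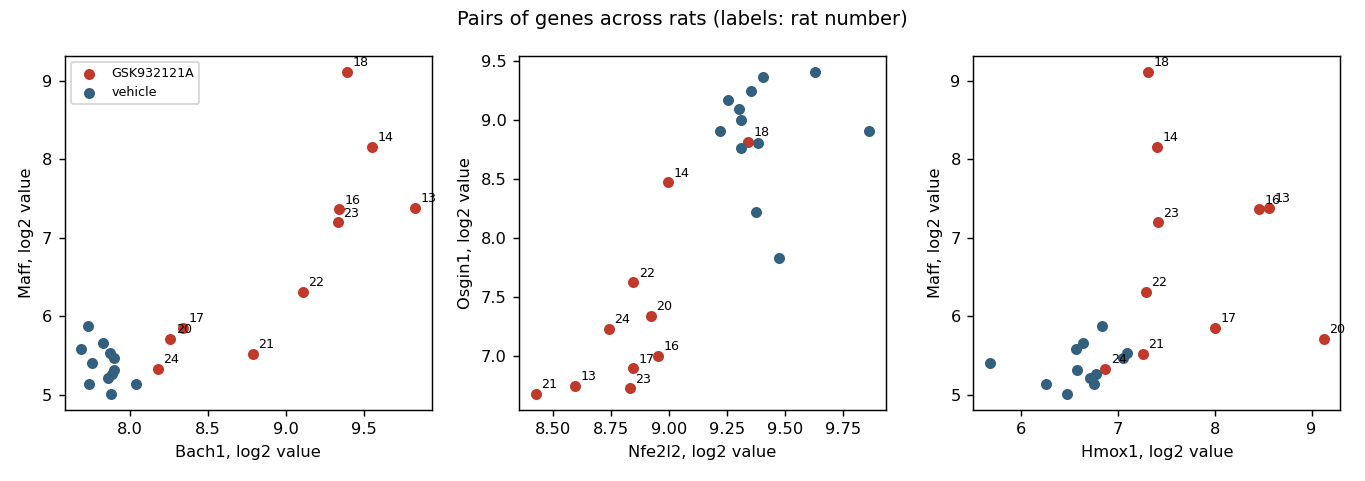
Log2 values of Bach1 and Maff, of Nfe2l2 and Osgin1, and of Hmox1 and Maff (horizontal and vertical axes of the 3 panels) in each rat, GSK932121A in red with rat numbers and vehicle in blue. In the Bach1 panel the treated rats run from rat 24 at 8.18 to rat 13 at 9.83, in the Nfe2l2 panel rats 14 and 18 lie nearest the vehicle rats, and in the Hmox1 panel rat 20 is far right with low Maff and rat 18 is high with a middling Hmox1.

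Of 11 glutathione and thioredoxin genes, 1 fell and none rose, with a median log2 difference of -0.10. The gene that fell was Gclm, the modifier subunit of the rate-limiting enzyme of glutathione synthesis, with a median of 8.04 in treated livers and 8.49 in vehicle livers. It lay below every vehicle rat in 6 treated rats (log2 difference -0.40, 95% interval -0.61 to -0.20, limma adjusted p = 0.0076). Its catalytic partner Gclc had a log2 difference of -0.10 (limma adjusted p = 0.615), and Slc7a11, the cystine importer, of 0.08 (limma adjusted p = 0.618).

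Of 24 drug and quinone detoxification genes, 1 rose and 3 fell, and the median log2 difference was -0.15. The aldehyde reductase gene Akr7a2 had a median of 8.59 in treated livers and 8.88 in vehicle livers and lay below every vehicle rat in 8 treated rats (log2 difference -0.39, 95% interval -0.56 to -0.22, limma adjusted p = 0.00222). The alpha class glutathione transferase genes Gsta1 and Gsta4 fell by 0.33 and 0.32 on the log2 scale (limma adjusted p = 0.0227 and 0.0406). The call of Gsta4 was lost in 12 of the 22 fits without 1 array, with an adjusted p of up to 0.0795 without treated rat 18, and held without treated rat 14, 16, 20, 22 or 23 or vehicle rat 3, 6, 10, 11 or 12. It was also lost with each array centred on its median (adjusted p = 0.0566), with cyclic loess (0.0671) and in the Welch and Wilcoxon tests (0.0637 and 0.0924). The call of Gsta1 was lost with 5 surrogate variables, where its difference was -0.14 (limma adjusted p = 0.619).

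Gstm3, a mu class transferase gene, had the largest log2 difference of the listed genes in the fit on group alone. Its lowest, median and highest log2 values were 3.47, 5.21 and 8.68 in treated livers, against 2.90, 3.46 and 4.00 in vehicle livers. It lay above every vehicle rat in 9 treated rats, with 8.68 in rat 18 and 8.55 in rat 14, while rat 20 lay within the vehicle range at 3.47. The log2 difference was 2.10 (95% interval 1.17 to 3.03, limma adjusted p = 0.00227). With 5 surrogate variables it was 0.64 (adjusted p = 0.260), below the 1.13 of Hmox1 in the same fit. In vehicle livers the probe set averaged 3.50, below the median of every array, and probe sets of glutathione transferases can catch RNA of near-identical family members, so which member was measured is uncertain.

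None of the 4 measured NADPH-generating genes passed the test in limma. At an unadjusted p under 0.05 in limma 1 of the 4 passed, as did 4354 of all 18166 genes. The larger differences were those of Idh1, the cytosolic isocitrate dehydrogenase gene, at -0.22 on the log2 scale (limma adjusted p = 0.0570), and of Taldo1, the transaldolase gene, at -0.09 (limma adjusted p = 0.597). Idh1 passed in limma with each array centred on its median (adjusted p = 0.0486), with both filters on low values (0.0333 and 0.0265), with trend and robust settings (0.0426) and without vehicle rat 7 (0.0370), vehicle rat 9 (0.0460), treated rat 16 (0.0402) or treated rat 24 (0.0474). It did not pass in the other alternatives. In limma the adjusted p was 0.106 without treated rat 18. With 5 surrogate variables the log2 difference of Idh1 was -0.20 (limma adjusted p = 0.0897).

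Of 9 heme and iron genes other than Hmox1, 2 fell and none rose, with a median log2 difference of -0.08. Fech, ferrochelatase, which inserts iron in the last step of heme synthesis, had a median of 7.92 in treated livers and 8.27 in vehicle livers (log2 difference -0.32, 95% interval -0.46 to -0.19, limma adjusted p = 0.00154). Slc40a1, ferroportin, which exports iron, had a median of 9.78 in treated livers and 9.99 in vehicle livers and lay below every vehicle rat in 8 treated rats (log2 difference -0.24, 95% interval -0.36 to -0.12, limma adjusted p = 0.00505). With 5 surrogate variables its difference was -0.25 and the adjusted p 0.0523. The ferritin genes Fth1 and Ftl1, which are NRF2 targets, had log2 differences of -0.08 and 0.02 (limma adjusted p = 0.443 and 0.905), and Hmox2, the constitutive heme oxygenase gene, of -0.26 (limma adjusted p = 0.0797).

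Of 10 autophagy receptor and adaptor genes beside Sqstm1, 1 rose and none fell, with a median log2 difference of 0.03. Map1lc3a, an LC3 family member that coats autophagosomes, had a median of 5.91 in treated livers and 5.51 in vehicle livers, with 7 treated rats above and 1 below every vehicle rat (log2 difference 0.35, 95% interval 0.15 to 0.56, limma adjusted p = 0.0178). The call was lost in the Welch test (adjusted p = 0.0633) and with 5 surrogate variables, where the difference was 0.05 (0.883).

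For each gene that changed, the genes with the most similar pattern were found by Pearson r over the 22 arrays, with values centred within each group, among 10316 genes. These are descriptions that share arrays and normalisation, and they carry no p. Centring takes out the group difference, so a gene of similar pattern need not have changed with treatment in the same way. For Maff they were Zfand5, Tgif1 and Hivep1, with r of 0.89, 0.88 and 0.88. Within the treated rats r was 0.93, 0.97 and 0.94, and within the vehicle rats -0.05, -0.08 and 0.12. For Osgin1 they were Prkaa1, a catalytic subunit of the AMP-activated kinase, Gmeb2 and Macir, with r of 0.79, 0.77 and 0.76. Prkaa1 rose where Osgin1 fell (log2 difference 0.25, limma adjusted p = 0.0337). Gmeb2 and Macir had differences of -0.01 and -0.08 (limma adjusted p = 0.961 and 0.787). For Nfe2l2 they were Vegfa, the vascular growth factor gene, Rnf144b and Colec11, with r of 0.77, 0.74 and 0.69. Their log2 differences were 0.01, -0.51 and -0.12 (limma adjusted p = 0.972, 0.0155 and 0.356). For Hmox1 they were Slc1a7, Ireb2, an iron regulatory protein gene, and the complement gene C3, with r of 0.77, 0.71 and 0.70. Their log2 differences were 0.03, 0.20 and -0.03 (limma adjusted p = 0.865, 0.139 and 0.766).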

How the data were processed

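Liver RNA of 22 rats was hybridised to 1 Affymetrix array each. Per the submitters' processing notes, the authors deposited log2 values made with RMA, which corrects background, normalises the arrays to each other and combines the probes of a probe set. The program behind RMA, with its version and probe set definition, was not given in the sources used here. A shift of the whole liver transcriptome is lost in this step, and RMA compresses changes of dim probe sets. Precision is limited by how many arrays there are.

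Of 36685 probe sets, 18511 had 1 gene symbol, 575 several and 17599 none in the platform annotation. For 291 genes with several probe sets the one with the highest mean was used, leaving 18166 genes, of which 18059 matched the RefSeq gene table by Entrez identifier, and 0 symbols changed. The groups came from the labels, each array is a separate rat, no pair of arrays was identical, and the labels give no batch.

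Genes were compared by limma 3.58.1 (R 4.3.3, lmFit and eBayes on group alone, two-sided), with Benjamini-Hochberg adjustment over all genes and a threshold of 0.05. A fold change is 2 raised to the log2 difference. Spread was compared by limma on absolute deviations from the group median. Correlations used two-sided permutation tests with 100000 resamples (Python 3.11.15, numpy 2.4.6, pandas 2.3.3, scipy 1.17.1, and matplotlib 3.10.9 for the plots). The limma fits were also run on simulated data. For the comparison of means these were independent normal values with the same spread in both groups. That setting differs from genes with a wider treated spread, such as Maff, and no conclusion is drawn from it here. The text names all 9 genes, in each further list up to 4 genes that passed, by size of the difference, the largest opposite change that passed, the 2 largest differences where none passed, the cell type markers that passed, and 3 genes of similar pattern per changed gene. Mafg, Gclc, Slc7a11, Fth1, Ftl1 and Hmox2 were added after their values were seen. The 9 genes and the lists were chosen with earlier results of these data known. Alternatives were other normalisations, filters, probe set rules, moderation, weights, tests, surrogate variables and each array left out.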

Additional observations from a re-analysis of the deposited data

How the results depend on the processing

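Of the 9 genes, 4 to 5 changed with each array left out, 5 with genes of a mean log2 value under 5 left out, 3 of 7 tested with a minimum of 7, which drops Maff and Srxn1, 3 with 5 surrogate variables, and 4 in each other alternative. In the Welch test Srxn1 took the place of Maff among the 4. Hmox1, Osgin1, Nfe2l2, Bach1, Gclm, Akr7a2 and Fech passed in every alternative run, and no call reversed its direction. Over all alternatives the log2 difference ran from 1.00 to 1.25 for Hmox1 (adjusted p up to 0.0216), from -1.78 to -1.46 for Osgin1 (up to 0.00302), from -0.61 to -0.51 for Nfe2l2 (up to 0.00221) and from 0.23 to 1.57 for Maff (up to 0.665). Of the 74 other pathway genes 12 changed, 9 to 15 with each array left out and 6 with surrogate variables, of which 1 rose and 5 fell. The surrogate variables held 45.5% of the variance of the group variable, so that fit also removes part of the group difference, and it called 603 of all genes against 2244. Cyclic loess called 1084 genes upward and 1040 downward over all genes, against 964 and 1280 as deposited. The count of the 9 genes that differed in spread was 1, and 0 to 1 with each array left out. The cause of these changes was not tested. No pair of the 9 genes passed the adjusted correlation test in any alternative run. No paired analysis was possible because the groups share no replicate numbers. Dim probe sets, such as those of Gstm3 in vehicle livers, limit what can be said of small changes.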
